A study of Bos taurus with 6 samples.

Results

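H3K4me3 sites whose nearest H3K27me3 summit lay to the side were described in bovine embryonic stem cells. The sites were chosen by the distances between peak summits in the deposited lists. A site is an H3K4me3 summit of line A on chromosomes 1 to 29 that has an H3K4me3 summit of line B within 1 kb. It counts as flanked when the nearest H3K27me3 summit of line A and that of line B each lie more than 500 and at most 3000 bases away. The rule found 955 flanked sites. They are 5.10% (95% Wilson interval 4.80% to 5.43%) of the 18712 H3K4me3 sites shared by both lines on those chromosomes, and come from 20908 H3K4me3 summits of line A in all.

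The cells are embryonic stem cells derived from bovine blastocysts, at passage 12, grown on mouse embryonic fibroblast feeders with human FGF2 and the WNT inhibitor IWR1 and freed of the feeders by magnetic beads before chromatin was made. They belong to 2 lines, A and B, which the labels describe alike in source, passage and treatment, and whether each stems from a different embryo is not stated in the sources used here. ChIP-seq of H3K4me3 and of H3K27me3 was made with 1 library per mark and line, and 2 input libraries were not analysed here. The design asks where each mark lies in the lines and whether both marks lie at the same places.

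Trimethylation of histone H3 at lysine 4 is laid down by the SET1 and MLL enzymes and is typical of promoters, most of all those in CpG islands. Trimethylation at lysine 27 is laid down by Polycomb repressive complex 2, whose catalytic subunit is EZH2 or EZH1, and is typical of silent developmental genes. In pluripotent cells many promoters of developmental regulators carry both marks, a state called bivalent, and there H3K27me3 often extends to the sides of a centre held by H3K4me3. Existing H3K4me3 on a nucleosome hinders Polycomb repressive complex 2 on the same histone tail.

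The lists give summits that are 1 base long without peak widths or read counts. How deeply each library was sequenced is unknown. A summit 500 to 3000 bases away marks where H3K27me3 was strongest, and the peak around it may still reach the H3K4me3 summit. Libraries hold many cells, so marks that lie side by side in the lists need not share a molecule or a cell, and the word bivalent is not used here for the sites. What genes lie at the sites, and on which strand, was not analysed here, because no annotation of the files' build (UMD3.1) was used, and for the same reason no sequence is shown and the identity of the cells could not be checked on marker genes. With 1 library per mark and line, and with sites chosen from the same lists, no test was made: values are given for each line, and an SD over lines has n = 2. Intervals are Wilson intervals and cover counting error only, and sites on 1 genome are not independent replicates.

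Flanked sites are compared with other classes of the same shared sites. At 2144 coinciding sites the nearest H3K27me3 summit lay within 500 bases in both lines. At 13049 solitary sites it lay more than 3000 bases away in both lines. The other 2564 sites fell in different classes in the lines. Of 1879 sites flanked in line A, 955 were flanked in line B too (50.8%), 405 were coinciding there (21.6%) and 519 solitary (27.6%). Of 1683 sites flanked in line B, the 955 made up 56.7%. Of the coinciding sites of line A 62.8% were coinciding in line B too, and of those of line B 78.4% in line A. For solitary sites these shares were 97.2% and 91.3%.

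Since the rule used the distances, they are given as a description. Both are measured from the H3K4me3 summit of line A. The H3K4me3 summit of line B lay a median of 68 bases from it (quartiles 25 and 177), but at 87 sites (9.11%) it lay within 500 bases of the line B flank, so that in line B the marks coincide there. The flanking H3K27me3 summit lay a median of 1025 bases from the site in line A (quartiles 709 and 1557) and 1073 bases in line B (754 and 1604). H3K27me3 summits were most frequent near the inner limit. For this count all of them, not the nearest alone, were put in bins of 250 bases. The bins were kept apart by side, with the flank side set by the nearest line A summit. Of all bins, that from 500 to 750 bases on the flank side was the fullest for either line. It held 28.8 summits per 100 sites for line A and 21.5 for line B. The bin at the same distance on the other side held 0.628 for line A and 4.4 for line B. Members just inside the inner limit, with the nearer distance at 501 to 550 bases, numbered 111, and had median H3K4me3 scores of 30.6 for line A and 48.5 for line B. The 73 sites just outside it, at 451 to 500 bases, had 27.5 and 42.0. Just inside the outer limit, with the farther distance at 2801 to 3000 bases, were 26 members with median H3K4me3 scores of 15.8 and 20.8, and just outside it, at 3001 to 3200 bases, 21 sites with 18.5 and 39.8.

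The side on which H3K27me3 lay was not part of the rule. It was mostly the same in both lines. At 821 of the 955 flanked sites (86.0%, interval 83.6% to 88.0%) the nearest H3K27me3 summits of lines A and B lay on the same side of the H3K4me3 summit. At these 821 sites the summits of the lines were a median of 148 bases apart (quartiles 51 and 364), while at the 134 sites with opposite sides they were 2192 bases apart, which the rule forces to exceed 1000. Over all members the median was 190 bases, with 312 sites (32.7%) within 100 bases. Along the chromosome, the flank lay to the right at 47.0% of the sites in line A and 48.9% in line B. Among coinciding sites the side agreed at 69.4%, where a shift of few bases can change it. Among the 246 coinciding sites with both distances over 250 bases it agreed at 89.4% (85.0% to 92.7%), so agreement on the side is not particular to flanked sites.

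**Figure D1:**
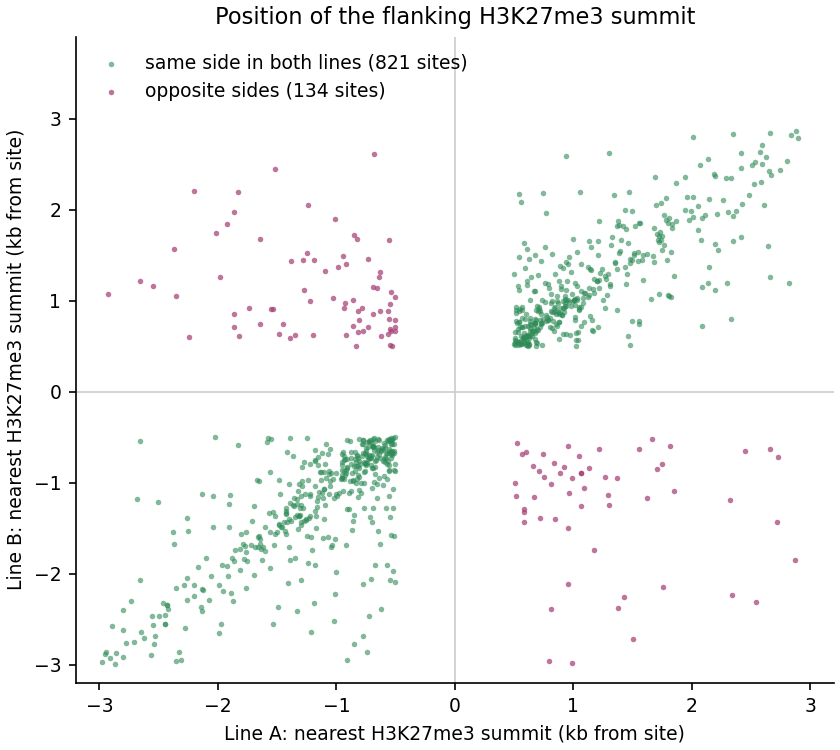
Signed distance in kb from each of the 955 flanked sites to the nearest H3K27me3 summit of line A (x axis) and of line B (y axis), 1 point per site; distances under 0.5 kb are empty by the rule. Most points (821, green) lie in the lower left and upper right quadrants along the diagonal, where the lines have the summit on the same side, and 134 (magenta) lie in the other quadrants.

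Most flanked sites had H3K27me3 summits on 1 side alone. A side without a summit need not lack the mark. At 294 sites exactly 1 H3K27me3 summit lay within 10 kb in each line, so only 1 side per line could be filled. Within 3 kb, 644 of the 955 sites (67.4%) had H3K27me3 summits on 1 side in each line, and at 622 of them that side was the same in both lines. Summits on both sides were present at 235 sites in line A (24.6%, interval 22.0% to 27.4%) and 205 in line B (21.5%, 19.0% to 24.2%), and at 129 sites in both lines (13.5%). At coinciding sites, summits on both sides within 3 kb were present at 38.9% of sites in line A and 32.1% in line B, though there a summit under 500 bases away fills 1 side. Of the 134 flanked sites whose nearest summits lay on opposite sides, 112 (83.6%) had summits on both sides in at least 1 line, against 199 of 821 (24.2%) where the sides agreed.

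The asymmetry was also seen across lines. With each site turned so that the nearest H3K27me3 summit of line A lay on the right, 1036 of the 1359 line B summits at 501 to 3000 bases (76.2%) lay on that side, a range in which the rule itself requires a line B summit. Farther out, at 3001 to 10000 bases, a range the rule did not use, 616 of 1083 line B summits (56.9%, interval 53.9% to 59.8%) did. Per 100 flanked sites, line B had 24.3 summits at 3 to 5 kb on the flank side and 16.8 on the other, and 40.2 and 32.1 at 5 to 10 kb. At coinciding sites turned in the same way the sides were nearly equal, with 17.8 and 17.4 line B summits per 100 sites at 3 to 5 kb and 34.4 and 34.9 at 5 to 10 kb. There the summit that sets the side lay a median of 117 bases from the site in line A. A shift of few bases can change that side, so near-equal sides there do not show that the asymmetry is particular to flanked sites.

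**Figure D2:**
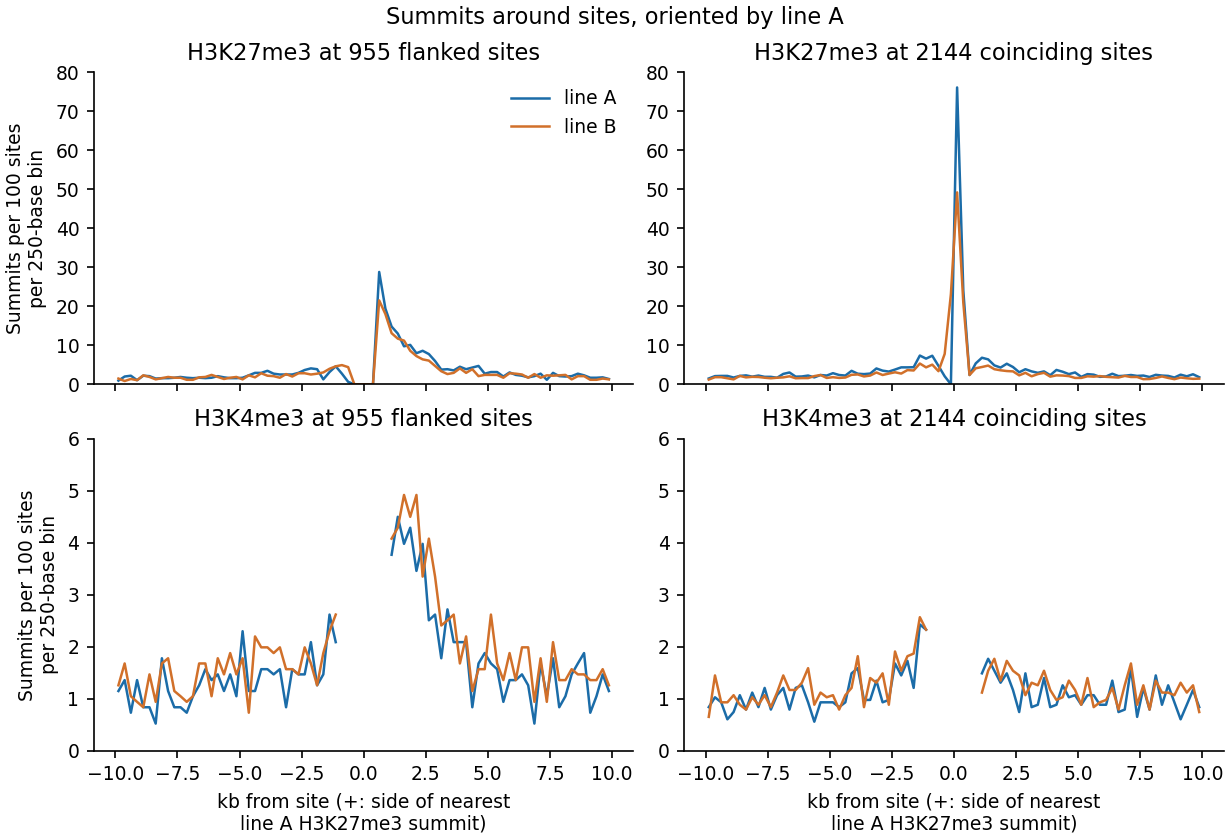
Summits per 100 sites in bins of 250 bases, from 10 kb on the far side (negative) to 10 kb on the side of the nearest line A H3K27me3 summit (positive), at flanked (left) and coinciding sites (right), for H3K27me3 (top) and H3K4me3 (bottom), where bins within 1 kb of the site are left out because they hold the site itself. Around flanked sites both marks are more frequent on the flank side. Within 3 kb the rule shapes the H3K27me3 curves of both lines, and the orientation sets that of line A too.

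The flank often held few H3K27me3 summits. Pooled H3K27me3 summits of both lines up to 5 kb apart were joined to regions. At 327 flanked sites (34.2%) the nearest region held 1 summit in each line, and in 141 (14.8%) it held at least 5 in each line. At coinciding sites these shares were close, 31.8% and 15.4%. From first to last summit the region spanned a median of 2235 bases at flanked sites and 1557 bases at coinciding sites. The flanked site lay outside the first and last H3K27me3 summit of its region in 593 cases (62.1%, interval 59.0% to 65.1%), against 33.2% of coinciding sites, whose H3K27me3 summit lies within 500 bases on either side by definition. Of the 141 flanked sites with such a large region, 22 (15.6%) lay outside its first and last summit. The others lay between H3K27me3 summits. Members can share a region, so 141 counts sites and not regions. Exactly 1 H3K27me3 summit lay within 10 kb at 346 flanked sites of line A, 425 of line B and 294 (30.8%) of both.

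Flanked sites had low H3K4me3 scores. The score is a −log10 p or q value of the peak, which grows with the depth of its library, so it is compared within a line. In line A the median H3K4me3 score was 23.4 at flanked sites (quartiles 11.9 and 42.7, range 2.13 to 931), 25.1 at coinciding sites (13.5 and 44.2) and 50.9 at solitary sites (24.2 and 77.6). In line B it was 39.6 at flanked sites (20.3 and 71.2, range 2.50 to 824), 41.1 at coinciding sites (21.5 and 69.5) and 88.6 at solitary sites (43.2 and 138). The ratio of medians was 0.454 ± 0.00962 for flanked over solitary sites and 0.948 ± 0.0203 for flanked over coinciding sites (SD over lines, n = 2). The flanked and coinciding scores ran close together up to the 95th percentile, at 81.6 and 83.7 for line A and 136 and 137 for line B. Above it they parted: the 99th percentile was 121 at flanked and 1090 at coinciding sites in line A, and 206 and 3538 in line B, and the highest coinciding sites scored 3033 and 11465. The ratio to coinciding sites fell on either side of 1 with the choice of sites, at 1.04 when members within 5 kb were counted once and 0.841 with H3K27me3 summits at or above the median score of their list.

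**Figure D3:**
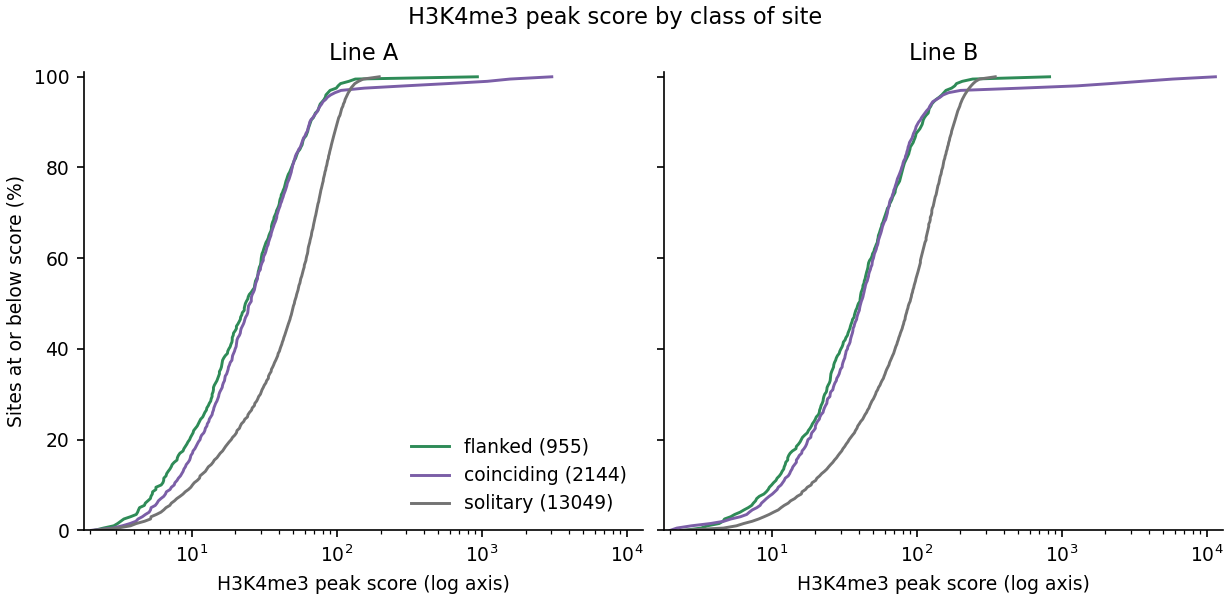
Percent of sites (y axis) at or below an H3K4me3 peak score (x axis, log scale) at 955 flanked, 2144 coinciding and 13049 solitary sites, in line A and line B. The flanked and coinciding curves run close together up to the 95th percentile, with medians of 23.4 and 25.1 in line A, above which the coinciding curve reaches far higher scores, and the solitary curve lies to the right over most of its length, with a median of 50.9.

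By score decile of the shared sites, flanked sites were most frequent in the lowest decile, where they made up 166 of 1872 sites (8.87%) by the scores of line A and 180 of 1872 (9.62%) by those of line B. In the highest decile they made up 26 of 1871 (1.39%) by line A and 25 of 1871 (1.34%) by line B. Coinciding sites were most frequent in the third decile of each line, at 19.4% and 18.6%, and less so in the lowest, at 14.6% and 18.0%.

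The flanking H3K27me3 summits had scores like those of coinciding sites. In line A the median was 15.4 at flanked sites (quartiles 7.90 and 27.3) and 15.7 at coinciding sites (9.31 and 25.1), and in line B 12.2 at flanked sites (6.84 and 21.2) and 11.5 at coinciding sites (6.96 and 18.7). The ratio of medians was 1.02 ± 0.0541 (SD over lines, n = 2). These medians stand at the 56.9th percentile of the autosomal H3K27me3 list of line A and the 48.0th of that of line B. Neither score followed the distance between the marks: the rank correlation (Spearman's rho, over 955 sites, as a description) of the mean distance was -0.04 and -0.03 with the H3K4me3 scores of lines A and B and -0.06 and 0.00 with the H3K27me3 scores. The scores of the marks ran weakly against each other, with rho of -0.25 for line A and -0.20 for line B, and also across lines, at -0.19 and -0.23. Over the 2144 coinciding sites rho within a line was 0.00 and -0.10. Between lines, rho over flanked sites was 0.83 for H3K4me3 and 0.67 for H3K27me3.

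Flanked sites with H3K27me3 summits on both sides had lower H3K4me3 scores than those with summits on 1 side. At the 129 sites with summits on both sides in both lines the median H3K4me3 score was 17.5 in line A (quartiles 8.02 and 33.6) and 25.2 in line B (15.5 and 45.5), while at the 644 sites with 1 side in both lines it was 28.0 (13.7 and 47.9) and 45.0 (22.6 and 79.4). The ratio of medians was 0.591 ± 0.0442 (SD over lines, n = 2). Their H3K27me3 scores ran the other way, at 18.5 for line A and 16.1 for line B with both sides, and 14.4 and 11.0 with 1 side. With H3K4me3 summits below their list's median score left out the ratio was 0.909. The order held with and without other H3K4me3 summits within 5 kb. With none in either line, medians were 28.3 and 27.1 for lines A and B at 31 sites with both sides, against 36.3 and 57.3 at 272 sites with 1 side. With others in both lines they were 14.3 and 24.6 at 77 sites, against 19.0 and 34.7 at 293 sites. Position in the region gave the same order, but it is not a separate observation. Regions join summits up to 5 kb apart, so sites with summits on both sides within 3 kb mostly lie between summits of their region. The 362 sites between H3K27me3 summits of their region had median H3K4me3 scores of 16.4 and 25.7 in lines A and B, and the 593 outside the ends 28.7 and 46.6.

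Flanked sites had company of the same mark. Another H3K4me3 summit of the same line lay within 5 kb at 529 of 955 flanked sites in line A (55.4%, interval 52.2% to 58.5%) and 540 in line B (56.5%, 53.4% to 59.7%). At coinciding sites this share was 33.6% for line A and 34.3% for line B, and at solitary sites 28.3% and 25.7%. At 186 flanked sites in line A (19.5%) and 200 in line B (20.9%) there were 2 or more other summits, against 9.98% and 11.0% of coinciding sites and 4.71% and 4.41% of solitary sites. Leaving out weak summits changed this, and also changed the sites compared. With H3K4me3 summits at or above the median score of their list alone, 233 sites were flanked, and another summit lay within 5 kb at 11.2% of these in line A and 8.58% in line B. Coinciding sites then had 12.8% and 14.0%, and solitary sites 9.54% and 9.37%, so the difference between the classes was not seen among strong summits.

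The extra H3K4me3 summits lay mostly on the H3K27me3 side. At the 821 sites with 1 agreed side, 425 of 629 other H3K4me3 summits of line A within 5 kb (67.6%, interval 63.8% to 71.1%) and 436 of 645 of line B (67.6%, 63.9% to 71.1%) lay on the side of the flank. At coinciding sites the shares were 43.5% and 43.0%. Some flanks lay at a neighbour with both marks. The flanking H3K27me3 summit itself lay within 500 bases of another H3K4me3 summit at 184 flanked sites of line A (19.3%), 197 of line B (20.6%) and 110 of both. Without all sites where that was so in either line, 53.4% of the other summits in line A (interval 48.2% to 58.6%) and 53.7% in line B (48.5% to 58.8%) lay on the flank side, though leaving out these sites takes away summits of that side by construction. With strong H3K4me3 summits alone the mean share of the lines was 53.8%. At those 184 and 197 sites the site and its neighbour had like scores, with median H3K4me3 scores of 16.0 at the flanked site and 16.0 at the neighbour in line A, and 28.2 and 21.5 in line B. The neighbour scored higher in 51.1% and 43.7% of them.

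**Figure D4:**
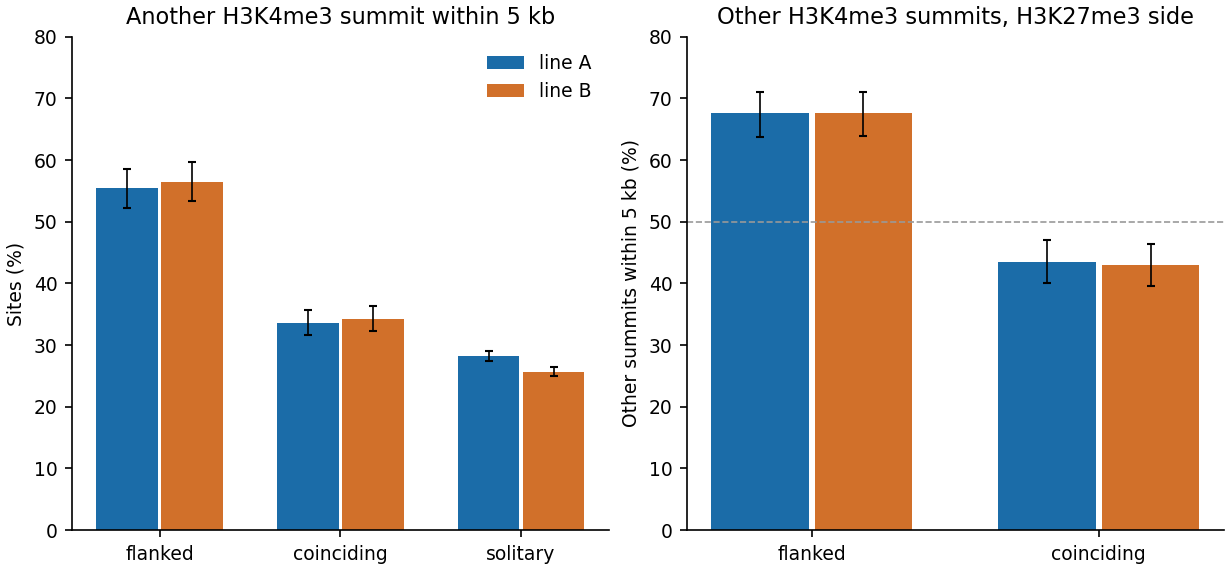
Left, percent of flanked, coinciding and solitary sites with another H3K4me3 summit of the same line within 5 kb; right, percent of those other summits that lie on the side of the nearest H3K27me3 summit, at flanked and coinciding sites where the lines agree on the side, with a dashed line at 50%. Bars are 1 library each, error bars are 95% Wilson intervals; flanked sites have the highest bars in both panels, at 55.4% and 56.5% on the left and 67.6% in each line on the right.

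Company went with low scores in each class. The 357 flanked sites with no other H3K4me3 summit within 5 kb in either line had median H3K4me3 scores of 34.2 and 54.3 in lines A and B, against 28.7 and 47.3 at 1319 such coinciding sites and 55.5 and 95.0 at 8924 such solitary sites. The 471 flanked sites with company in both lines had 16.7 and 29.2, against 19.8 and 33.3 at coinciding sites and 38.3 and 66.4 at solitary sites. Among sites without company the ratio of flanked over coinciding medians was 1.17, on the other side of 1 from the ratio over all sites, and that of flanked over solitary medians 0.594.

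Flanked sites were found on all 29 autosomes, with 9 on chromosome 27 at the low end and 77 on chromosome 18 at the high end. As a share of shared H3K4me3 sites they were most frequent on chromosome 26, at 35 of 385 (9.09%, interval 6.61% to 12.4%), followed by chromosome 13, at 53 of 743 (7.13%, 5.49% to 9.21%). The lowest shares were on chromosome 1, at 16 of 696 (2.30%, 1.42% to 3.70%), and chromosome 22, at 15 of 519 (2.89%, 1.76% to 4.71%). The intervals of chromosomes 13, 18 and 26 lie above the share over all autosomes, those of chromosomes 1, 5 and 22 lie below it, and those of the other autosomes include it. Set against coinciding sites, there were 72.9 flanked sites per 100 coinciding ones on chromosome 26, 68.1 on chromosome 18, 22.2 on chromosome 1 and 13.6 on chromosome 27.

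**Figure D5:**
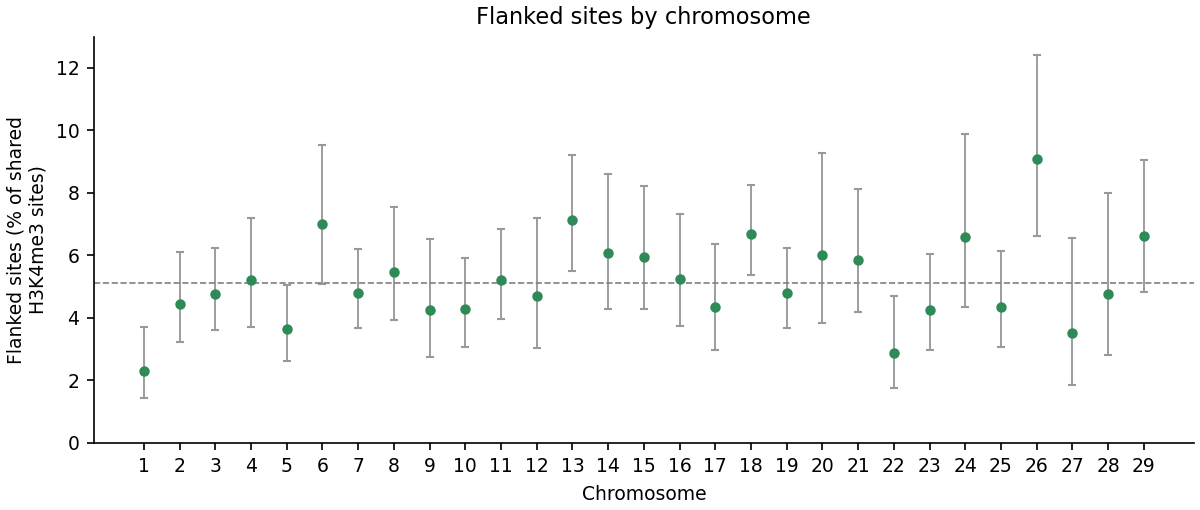
Flanked sites as a percent of the shared H3K4me3 sites of each autosome (points) with 95% Wilson intervals (bars); the dashed line is the share over all autosomes, 5.10%. Chromosome 26 is highest at 9.09% and chromosome 1 lowest at 2.30%.

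Most members stood apart from each other. Chained up to 5 kb apart, they formed 783 single sites, 76 pairs, 5 groups of 3 and 1 group of 5. In line A 52 H3K27me3 summits were the flank of 2 or more members, and 27 of these lay between their members; in line B these numbers were 58 and 29. Such members share a flank and are not separate observations of it. Members that share their H3K4me3 partner summit in line B numbered 20.

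The group of 5 lay on chromosome 13 between 16003032 and 16008809. Its 5 members had H3K4me3 scores of 3.78 to 25.6 in line A and 4.64 to 40.7 in line B, and the H3K27me3 summits around them scored 4.81 to 29.6 and 4.70 to 21.5. With 5 kb added at each end the stretch held 6 and 5 summits of H3K4me3 and 5 and 6 of H3K27me3 (line A first, then line B), so summits of both marks lay close together there. On chromosome 16 between 47951051 and 47954649, 3 members lay around a single H3K27me3 summit, at 47952744 in line A with a score of 10.4 and at 47953415 in line B with 4.85. It had 2 members on its left, with H3K4me3 scores of 9.74 and 17.7 in line A, and 1 on its right, with 16.3. In line B both members on the left share an H3K4me3 summit that scored 46.6, and that on the right scored 28.4. On chromosome 21, members at 68149193 and 68150212 lay left of an H3K27me3 summit at 68151150 that scored 65.6 in line A, and at 68151330 with 56.3 in line B, and a member at 68153809 lay right of it. The nearest line B summit of that member was another one, at 68155020, with a score of 3.98. There the H3K4me3 score was higher right of the summit, at 57.7 in line A and 89.8 in line B, than left of it, at 18.4 and 21.3 in line A and 12.2 and 14.3 in line B.

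The 8 members with the best mean rank of H3K4me3 score had flanks from weak to very strong, beside median flank scores of 15.4 and 12.2 over all members in lines A and B. On chromosome 13 the site at 55518767 scored 138 in line A and 235 in line B for H3K4me3, and its flank, 599 and 857 bases to the right, scored 9.74 and 5.93. The site at 55501670 on the same chromosome scored 123 and 270, with a flank of 14.4 and 9.59 at 918 and 897 bases to its left. On chromosome 27 the site at 32951754 scored 169 and 192, and its flank 3.96 and 2.36, close to the lowest scores of the lists. On chromosome 7 the site at 20139989 scored 133 and 197, with a flank of 5.51 and 21.2. On chromosome 3 the site at 8102523 scored 143 and 512 with a flank of 9.62 and 27.2, and that at 21445322 scored 125 and 409 with a flank of 28.8 and 15.6. Much higher flanks stood on chromosome 28, at the site with the highest H3K4me3 score, and on chromosome 11 at 107303949. The site on chromosome 11 scored 121 for line A and 404 for line B, and had H3K27me3 on both sides, with 219 on the left and 482 on the right in line A and 104 and 221 in line B.

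Among the 955 members, 1 exceeded every solitary site in H3K4me3 score in both lines. It lay on chromosome 28 at 1894919, with H3K4me3 scores of 931 for line A and 824 for line B, and had a single H3K27me3 summit within 10 kb in each line, at 1894385 in line A with a score of 1226 and at 1894347 in line B with 1529. The highest solitary sites scored 196 in line A and 348 in line B.

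Some flanks scored far above the rest. At 34 members (3.56%) the flanking H3K27me3 summit scored over 100 in both lines. This limit was set with the values already in view. At 27 of these the summits of the lines lay within 30 bases of each other, against 118 of the other 921 members (12.8%). Their median H3K4me3 score was 13.7 for line A and 25.9 for line B. The highest nearest summit, on chromosome 8 at 56774950 in line A and 56774960 in line B, scored 1910 and 1909 beside a site at 56773732 with H3K4me3 scores of 12.9 and 19.7. On chromosome 6 the site at 77984772 had H3K4me3 scores of 4.36 for line A and 143 for line B, and H3K27me3 on both sides, with scores of 1297 on the left and 1132 on the right in line A and 1065 and 972 in line B. There the line B H3K4me3 summit lay 682 bases from that of line A and 27 bases from the line B flank, so the strong H3K4me3 of line B stood on the H3K27me3 summit and not beside it. Of the 34 members, 5 had the line B H3K4me3 summit within 500 bases of the line B flank, among them those at 19402024 on chromosome 29, with 0 bases between them, and at 56776912 on chromosome 8, with 8 bases. The site at 19402024 also had an H3K27me3 summit within 3 kb on its other side that scored 3396 for line A and 3785 for line B, above the nearest summit of any member. On chromosome 29 the sites at 19402024, 19416851 and 19425919 had nearest summits of 890 to 1361 in line A and 955 to 1185 in line B, with H3K4me3 scores of 8.02 to 29.4 and 5.20 to 25.2. Regions where H3K27me3 summits of the lines lie at nearly the same bases (at least 5 summits in each line, median distance at most 30 bases) held or neighboured 19 of the 955 members (1.99%) and 106 of the 2144 coinciding sites (4.94%). The 19 had a median flank score of 421 for line A and 374 for line B, and the other 936 of 14.9 and 11.9. Of the 34 members above, some share a flank, such as 11313282 and 11315260 on chromosome 11. Among the 34, 14 (41.2%) lay in or near such a region, where a small distance between lines is part of the definition. A recount without these H3K27me3 regions, which is not the same as leaving out the 19 members, gave 934 flanked sites. It had the same side at 86.0% and a ratio of H3K4me3 medians to solitary sites of 0.464.

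At some members the flanks of the lines coincided to the base at scores below those of the highest flanks. On chromosome 19 the site at 56715925 had its flank at 56715190 in both lines, with scores of 125 and 118, and on chromosome 20 the site at 66609875 had it at 66610794, with 134 and 136. The members with the smallest sum of distances lay at 40479345 on chromosome 26, with distances of 501 and 502 bases, and at 67062489 on chromosome 5, with 509 and 513 bases. At both the line B H3K4me3 summit lay within 11 bases of the line B flank, at 3 and 11 bases.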

How the data were processed

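The deposited files are 4 lists of peak summits, 1 for each mark (H3K4me3, H3K27me3) and line (A, B). The submitters' processing notes name BWA, MACS2 and the bovine build UMD3.1, without versions or roles. Each deposited list belongs to 1 sample, and its peak names carry the caller's paired-end mode. Each deposited row gives a summit 1 base long and a score, a −log10 p or q value (which of them is not stated in the sources used here), with a lowest value of 2.00. No depth, width or input track was used, so precision beyond counting error is unknown. Positions are the authors' coordinates, counted from 1.

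Distances, classes, shares and medians were computed in Python 3.11.15 with numpy 2.4.6, pandas 2.3.3 and scipy 1.17.1, and drawn with matplotlib 3.10.9. The search for sites was tested on simulated lists with well-separated sites planted inside the class limits, which checks the code alone. The rule, the classes and the regions named (highest scores, clusters with most members, both sides, smallest distances) were chosen with earlier results of these data known. No significance test was made. Alternatives changed the distance limits, the line that anchors the sites, the score minimum and the lines used.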

Additional observations from a re-analysis of the deposited data

Results flagged for a closer look

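Chromosome X lies outside the rule that chose the sites. There, 61 of the 760 H3K4me3 sites shared by both lines (8.03%, 95% Wilson interval 6.30% to 10.2%) met the same distance limits, against 5.10% on the autosomes. Coinciding sites were also more frequent there, at 339 of the 760, against 2144 of the 18712 shared autosomal sites. Set against coinciding sites, flanked sites were fewer on chromosome X, at 61 beside 339, than on the autosomes, at 955 beside 2144. The input libraries were not analysed here, and these differences were not tested.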

How the results depend on the processing

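No paired analysis was possible because the results come from no test. Of 124 recomputed values for 10 results, 49 stayed within the limit set for their kind and 75 did not, and the cause was not tested. The limit was a factor of 1.5 for the number of sites, the 95% interval of the main value for the same side and for the distance between flanks, and 1 SD over lines for the rest, which is very narrow for the flank side (0.0207 percentage points). With a lower limit of 250 bases there were 1542 flanked sites, 27.9% with H3K27me3 on both sides, 50.4% with another H3K4me3 summit, 62.6% of these on the flank side, and a score ratio of both sides over 1 side of 0.638. With 1000 bases there were 398, the same side in both lines at 90.2%, both sides at 14.7%, a ratio to solitary sites of 0.443, another summit at 67.8%, the flank side at 75.5% and both sides over 1 side at 0.505. An upper limit of 2000 bases gave both sides at 17.7%, ratios to coinciding and solitary sites of 0.973 and 0.470, flanks 154 bases apart, another summit at 51.2%, the flank side at 64.8% and 0.664 for both sides over 1. With 5000 bases these were 28.2%, 0.984, 0.467, 236 bases, 58.5%, 69.5% and 0.504, and the H3K27me3 ratio was 0.963. Sharing within 500 bases gave ratios of 1.00 and 0.477, another summit at 54.8% and the flank side at 67.8%. With line B as anchor these were 0.908, 0.439, 54.8% and 67.0%. H3K27me3 summits at or above the median score left 589 sites, the same side at 88.3%, both sides at 13.4%, ratios of 0.841 and 0.398, another summit at 64.9%, the flank side at 69.8% and 0.665. H3K4me3 summits at or above it left 233 sites, 91.8%, 13.1%, ratios of 1.03 and 0.820, an H3K27me3 ratio of 0.755, another summit at 9.87%, the flank side at 53.8% and 0.909. Members within 5 kb counted once gave 1.04, 0.499, 51.6% and 69.6%. Without position-locked regions the ratio to solitary sites was 0.464 and the flank side 67.6%. Chosen after seeing the data were all alternatives for another summit, the flank side and both sides over 1 side, and the setting of no other H3K4me3 summit within 5 kb. That setting left 357 sites, the same side at 90.5%, both sides at 16.2%, and ratios of 1.17 to coinciding sites, 0.594 to solitary sites and 0.924 for H3K27me3; its neighbour shares cannot be had. From 1 line alone there were 2073 to 2087 sites, both sides at 20.7% to 22.7%, ratios of 0.856 to 0.961, 0.405 to 0.451 and 0.818 to 1.02, another summit at 51.2% to 59.4%, the flank side at 62.0% to 63.0% and 0.626 to 0.638; agreement between lines has no value there. In each alternative flanked sites scored below solitary sites for H3K4me3, while the ratio to coinciding sites fell on either side of 1. Sequence features were not run, since no UMD3.1 genome was used. Depth is unknown, so a missing summit does not show a missing mark.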
